A study of Rattus norvegicus with 24 samples.

Results

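The 10 genes described here encode proteins that clear calcium from the cytosol: the sodium/calcium exchangers Slc8a1, Slc8a2 and Slc8a3, the potassium-dependent exchangers Slc24a2 and Slc24a3, the plasma membrane pumps Atp2b1 to Atp2b4, and the endoplasmic reticulum pump Atp2a2. They were picked by name from 32545 genes after Slc8a2 had been seen to be higher in LPS-Heroin than in Saline-Saline rats, and all 10 had a value in each of the 24 libraries. RNA was sequenced from the nucleus accumbens (NAc), a part of the ventral striatum, of adult male Sprague Dawley rats that were 8 weeks old on arrival, with 4 animals in each of 6 groups. In the injection experiment, rats received 5 intermittent intraperitoneal injections of saline or of 250 µg/kg lipopolysaccharide (LPS, a bacterial cell wall component that sets off an immune response), and later 5 daily intraperitoneal injections of saline or of heroin rising from 1 to 5 mg/kg, and the 4 groups are named by both treatments in order: LPS-Saline for LPS then saline, LPS-Heroin for LPS then heroin, and Saline-Heroin and Saline-Saline for those without LPS. Per the labels these animals were killed 1 hour after the last injection; the methods place a short locomotor session between the injection and death and count the time from its end. In the self-administration (SA) experiment, rats with a jugular catheter took saline (Saline-SA) or heroin at 0.075 mg/kg per infusion (Heroin-SA) in 10 daily sessions of 6 hours and were killed right after the last. SA animals had surgery and no intraperitoneal course. Per the methods they were single-housed after surgery on a reverse light/dark cycle, while injected rats were pair-housed on a normal cycle. The groups of the 2 experiments thus differ in more than the drug.

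Calcium that enters a neuron during activity has to be removed again. Plasma membrane pumps use ATP to export calcium with high affinity, and exchangers of the Slc8 family trade it for sodium. Exchangers of the Slc24 family move calcium and potassium out together in trade for sodium. The Atp2a pumps return calcium to the endoplasmic reticulum. The exchangers carry larger calcium loads at lower affinity and depend on the sodium gradient that the sodium-potassium ATPase maintains. In forebrain neurons the exchangers Slc8a2 and Slc24a2 and the pumps Atp2b1 and Atp2b2 are well known at synapses, and Atp2a2 is the widespread pump of the endoplasmic reticulum.

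In the rn6 build used for the deposited values, Slc8a2 (ENSRNOG00000001492) lies on chromosome 1 from 78025995 to 78060111 on the plus strand and Slc24a2 (ENSRNOG00000008169) on chromosome 5 from 105336262 to 105582375 on the minus strand. Atp2a2 (ENSRNOG00000001285) lies on chromosome 12 from 39553903 to 39603326. Slc8a1 (ENSRNOG00000008479) is on chromosome 6 from 4258991 to 4520604, and Atp2b4 (ENSRNOG00000003031) on chromosome 13 from 50091430 to 50153823. None of the members shared its span with a gene that had more than 2 reads in any library, so overlapping genes could have added little to the values. RefSeq promoter windows of the GRCr8 build were matched by symbol for 9 of the 10 members. For Slc8a1 and Atp2b4 the strand of the window differed from that of the gene in the deposited file, so their windows are not described. The 250 bases before the start are shown for Slc8a2 and Slc24a2, which both stood higher in Heroin-SA than in Saline-SA libraries without overlap, and for Atp2a2, the member with the highest level. They lie at chr1:85950512-85950761 on the plus strand, at chr5:106787781-106788030 on the minus strand and at chr12:39733269-39733518 on the plus strand. Capitals mark GC boxes, the letters GGGCGG or their complement CCGCCC.
Slc8a2: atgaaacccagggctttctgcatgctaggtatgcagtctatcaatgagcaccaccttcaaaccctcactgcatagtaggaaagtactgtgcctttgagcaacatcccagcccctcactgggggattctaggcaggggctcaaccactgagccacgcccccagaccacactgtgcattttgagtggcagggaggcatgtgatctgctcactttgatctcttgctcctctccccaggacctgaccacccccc
Slc24a2: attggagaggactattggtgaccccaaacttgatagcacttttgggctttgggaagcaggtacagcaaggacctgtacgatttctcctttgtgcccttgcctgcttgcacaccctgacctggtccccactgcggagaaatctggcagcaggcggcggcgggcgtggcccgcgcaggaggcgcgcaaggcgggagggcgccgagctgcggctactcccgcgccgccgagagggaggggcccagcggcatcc
Atp2a2: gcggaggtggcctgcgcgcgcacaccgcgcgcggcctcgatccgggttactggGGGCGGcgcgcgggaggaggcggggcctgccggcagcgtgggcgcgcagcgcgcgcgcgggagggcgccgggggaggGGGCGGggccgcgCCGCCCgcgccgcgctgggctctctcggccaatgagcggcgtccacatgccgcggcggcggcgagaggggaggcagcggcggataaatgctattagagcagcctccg
The Atp2a2 window held 3 GC boxes, a motif found in 30.5% of all 33469 windows of this length, and the Slc8a2 and Slc24a2 windows held none. Neither of those held the CRE core TGACG (18.2% of windows, with its complement CGTCA) or the letters TGANTCA (6.34% of windows, the same on both strands). GC content was 55.2% for Slc8a2, 65.2% for Slc24a2 and 80.0% for Atp2a2, against a median of 51.2% over all windows. Among the other members, Atp2b1 held 3 GC boxes, and Slc8a3 and Atp2b2 held 1 each.

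All 10 members were well detected. Levels are given as FPKM, which divides the fragments of a gene by the length of its model and by the size of the library, so that genes can be compared per length. Over the 24 libraries Atp2a2 had the highest mean, 127 FPKM, which put it at the 96.0 percentile of the 15118 genes with a mean of at least 0.5 FPKM. Atp2b1 followed with 98.5 FPKM and Slc8a2 with 59.3 FPKM, then Atp2b2 with 50.02 FPKM, Slc24a2 with 34.4 FPKM, Slc24a3 with 27.9 FPKM, Atp2b4 with 27.5 FPKM and Atp2b3 with 20.5 FPKM. Slc8a3 (7.34 FPKM) and Slc8a1 (6.99 FPKM) were the lowest, so within the sodium/calcium exchangers Slc8a2 had the highest level in every library. The fewest reads behind any value were 67, for Slc8a1 in a Saline-SA library, and the most were 18257, for Atp2a2 in an LPS-Heroin library. Gene models ran from 1581 bases for Slc24a3 to 9124 bases for Atp2b2, and a model that leaves out part of a transcript moves its level per length.

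Libraries held 12312878 to 18850240 reads on genes. All 10 markers of striatal medium spiny neurons, the main cell type of the NAc, averaged at least 0.5 FPKM. Mitochondrial transcripts took 6.82% to 9.10% of the reads in the 16 injection libraries and 10.0% to 15.9% in the 8 SA libraries, where Saline-SA replicates 3 and 4 had the highest shares (15.9% and 14.1%). No gene passed an adjusted p of 0.05 in any comparison, with limma-trend or with limma-voom on the recovered reads, so a gene is called here by the looser limits of the study's pattern analyses: p no higher than 0.05 before adjustment, and a log2 fold change of 0.378 or more in either direction. That p limit alone was met by 607 to 1725 genes per comparison.

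**Figure D1:**
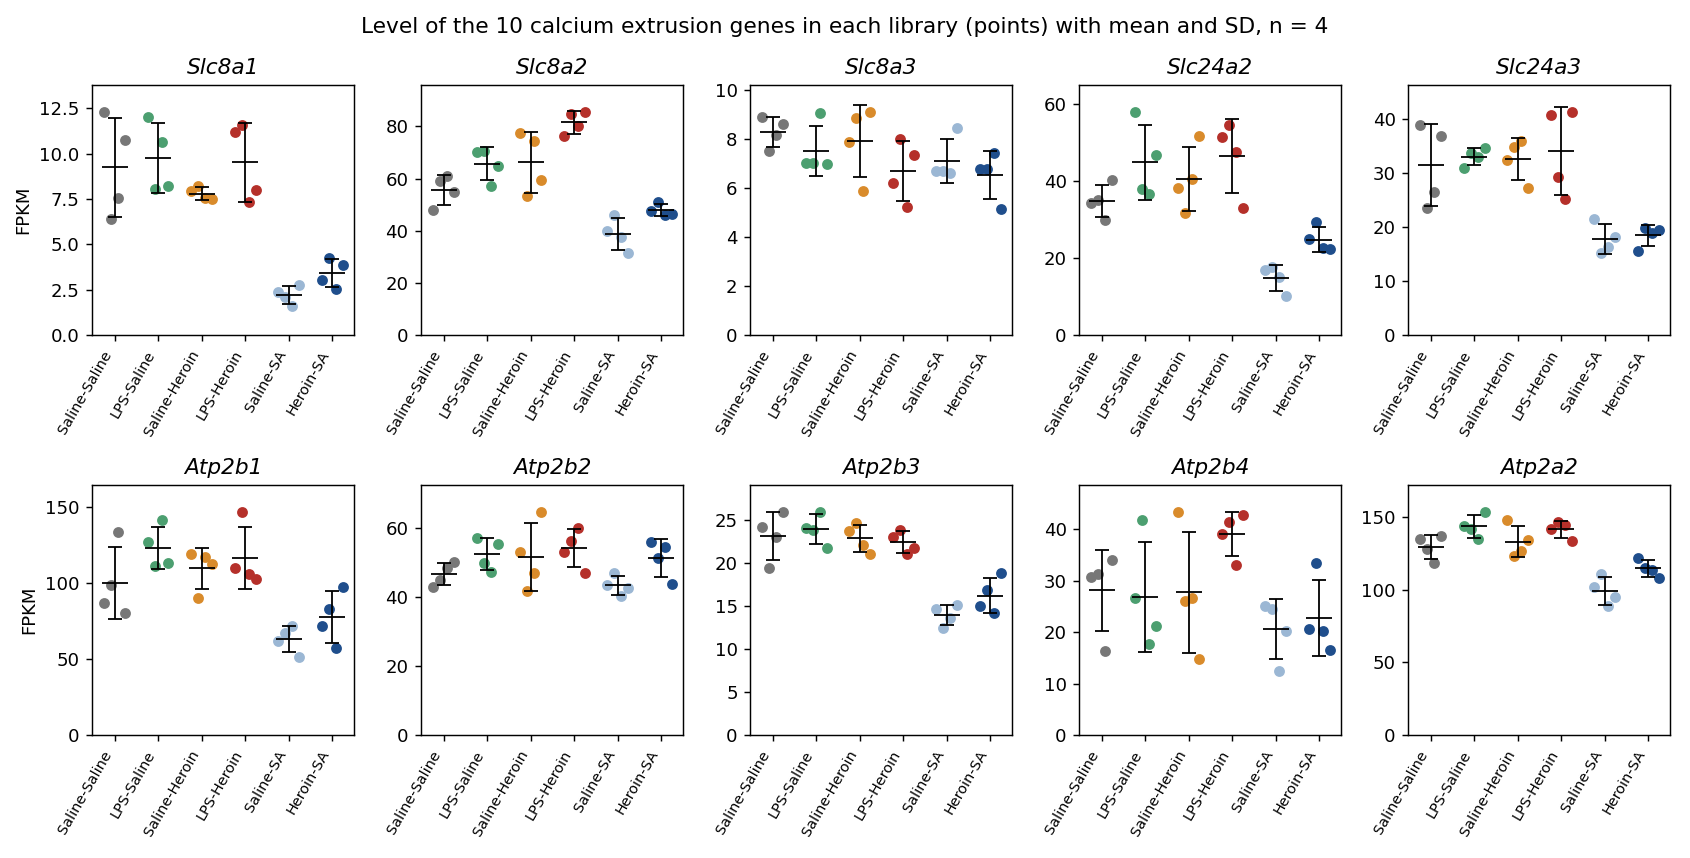
FPKM of each member in the 24 libraries, by group (vertical axis, FPKM from 0; colored points are libraries in the order of their replicate number; black bars are the mean and SD, n = 4). Slc8a2 reaches its highest values in LPS-Heroin (76.2 to 85.6 FPKM), and Slc8a1, Slc24a2, Slc24a3 and Atp2b3 lie lower in every SA library than in any injection library.

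Slc8a2, the sodium/calcium exchanger through which the set was chosen, had 48.1, 59.1, 60.9 and 54.9 FPKM in the Saline-Saline libraries. LPS-Saline libraries had 70.3, 70.6, 57.0 and 64.8 FPKM, and Saline-Heroin libraries had 77.6, 53.5, 74.4 and 59.6 FPKM. LPS-Heroin libraries had 76.2, 84.7, 80.0 and 85.6 FPKM. Every LPS-Heroin library lay above every Saline-Saline and every LPS-Saline library, as for 3.7% and 1.28% of all genes, and no other member was so placed against either group. Saline-Heroin replicate 1 exceeded the lowest LPS-Heroin value. The group means stood in the order Saline-Saline (55.7 ± 5.67 FPKM, SD, n = 4), LPS-Saline (65.7 ± 6.34 FPKM), Saline-Heroin (66.3 ± 11.6 FPKM) and LPS-Heroin (81.6 ± 4.38 FPKM), and each group's range overlapped that of the next in this order. The log2 fold changes against Saline-Saline were 0.24 ± 0.10 (SE) for LPS-Saline, 0.24 ± 0.13 for Saline-Heroin and 0.55 ± 0.08 for LPS-Heroin. These 3 comparisons share the Saline-Saline libraries, and since the last of them chose the gene, the values are given as a description with no test. LPS-Heroin stood 0.32 ± 0.08 above LPS-Saline and 0.32 ± 0.12 above Saline-Heroin on the log2 scale, also with no test since the LPS-Heroin libraries are the same.

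Whether the heroin difference changed with LPS history was fitted as an interaction over the 16 injection libraries. This contrast is orthogonal to the one that chose Slc8a2 but uses the same LPS-Heroin and Saline-Saline libraries. The value of Slc8a2 is therefore a description with no test. For Slc8a2 the interaction was 0.08 ± 0.16 (SE) on the log2 scale, with a 95% interval from -0.26 to 0.42. The interval reaches as far as the differences of LPS-Saline and Saline-Heroin from Saline-Saline, so it leaves the size of any interaction wide. No member passed the limits for the interaction, against 2.31% of all 15113 genes tested. The largest value belonged to the plasma membrane pump Atp2b4, 0.68 ± 0.44 (limma, adjusted p = 0.992). Without Saline-Saline replicate 3, 2 members passed the limits, and 1 did without LPS-Saline replicate 2 or Saline-Heroin replicate 1.

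Against Saline-Saline, 3 members were past the limits in LPS-Heroin, all of them higher: Slc8a2, Atp2b4 and Slc24a2. Of the 15134 genes tested, 5.43% were called. Since this contrast chose Slc8a2, the members' values are a description and nothing is read from the count. Atp2b4 had 30.8, 31.3, 16.4 and 34.0 FPKM in Saline-Saline and 39.1, 41.4, 33.0 and 42.9 FPKM in LPS-Heroin, and its log2 fold change was 0.52 ± 0.21. Saline-Saline replicate 3 was far below the other 3 libraries, the ranges overlapped, and without that library the log2 fold change was 0.28 and outside the limits, as it was without LPS-Heroin replicate 1, 2 or 4. Slc24a2 had 34.2, 35.0, 30.0 and 40.3 FPKM in Saline-Saline and 51.4, 54.5, 47.4 and 32.9 FPKM in LPS-Heroin, where replicate 4 lay among the controls, for a log2 fold change of 0.40 ± 0.16. This was the member just inside the fold change limit, and it fell outside the limits without Saline-Saline replicate 1, 2 or 3 or LPS-Heroin replicate 1, 2 or 3 (0.31 to 0.40). Just outside it stood Slc8a3, with a log2 fold change of -0.32 ± 0.14, and then Atp2b1 with 0.23 ± 0.17. Atp2b2 (0.21 ± 0.08) and Atp2a2 (0.13 ± 0.06) were smaller, and Slc24a3, Slc8a1 and Atp2b3 lay between -0.04 and 0.12.

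Markers of neighbouring tissue differed between the same groups. Of 7 measured markers of cortical glutamatergic neurons, 5 were called higher in LPS-Heroin than in Saline-Saline, among them the vesicular glutamate transporter Slc17a7 (333 ± 39.6 against 158 ± 79.0 FPKM, SD, n = 4). The summed level of these 7 markers was 97.99 to 279 FPKM in Saline-Saline and 353 to 449 FPKM in LPS-Heroin, with no overlap. Of 7 markers of septum and ventral forebrain, 4 were called lower, and their sum ran from 45.6 to 132 FPKM in Saline-Saline and from 24.3 to 53.1 FPKM in LPS-Heroin. No marker of either list averaged under 0.5 FPKM. In bulk tissue, fewer cells of a type and less RNA per cell cannot be told apart, and the part of these markers in the values of Slc8a2, Atp2b4 and Slc24a2 was not tested. The summed level of 6 pan-neuronal markers did not overlap either, with 1052 to 1288 FPKM in Saline-Saline and 1290 to 1399 FPKM in LPS-Heroin, though 0 of the 6 were called and 2 were higher without overlap; its part was not tested. Of 3 measured red blood cell genes 2 were called higher, and of 6 microglial markers 1, Tmem119, was. The other 5 microglial markers had a negative log2 fold change, and the median of the list was -0.15.

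Past LPS or injected heroin alone moved no member past the limits. In LPS-Saline against Saline-Saline 0 of 10 were called, where 2.37% of 15119 genes were, and in Saline-Heroin against Saline-Saline 0 of 10 were called, where 3.07% of 15143 genes were. Slc24a2 had 57.9, 37.9, 36.8 and 46.6 FPKM in LPS-Saline, and its log2 fold change of 0.34 ± 0.15 stayed below the limit (95% interval 0.01 to 0.68, limma, adjusted p = 0.746). The median log2 fold change of the members was 0.13 in LPS-Saline, against 0.01 over all genes, and 0.06 in Saline-Heroin, against 0.00 over all genes. Over 6 pan-neuronal markers the medians were 0.12 in LPS-Saline and 0.15 in Saline-Heroin. Leaving out Saline-Saline replicate 4 or LPS-Saline replicate 2 or 3 brought Slc24a2 past the limits in LPS-Saline, with log2 fold changes of 0.42, 0.42 and 0.43, and 1 member was called without Saline-Saline replicate 3.

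Adding heroin to LPS history called 1 member. Atp2b4, a plasma membrane pump, had 26.7, 41.9, 17.7 and 21.1 FPKM in LPS-Saline against the 33.0 to 42.9 FPKM of LPS-Heroin. The log2 fold change was 0.61 ± 0.23 (95% interval 0.08 to 1.14, limma, adjusted p = 0.977), and LPS-Saline replicate 2 lay within the LPS-Heroin range. Of 15069 genes, 2.29% were called. The call was lost when LPS-Saline replicate 3 or 4 or LPS-Heroin replicate 1, 2 or 4 was left out (log2 fold change 0.44 to 0.61 in these 5) and in a fit of all 24 libraries. Of the marker lists, 0 of 7 cortical markers were called in this comparison, with a median log2 fold change of 0.55, and their sum was 119 to 389 FPKM in LPS-Saline. LPS-Saline replicate 3, the lowest for Atp2b4 in that group, had the lowest cortical sum. Of 6 microglial markers 2, P2ry12 and Itgam, were called lower. In this list 4 markers had a negative and 2 a positive log2 fold change, with a median of -0.09. The part of these markers in the value of Atp2b4 was not tested. Atp2b4 was among the most variable members, with 14.7 to 43.5 FPKM in Saline-Heroin. Against Saline-Heroin, 0 of 10 members were called, where 2.2% of 15121 genes were, and Atp2b4 had 0.59 ± 0.27 (95% interval -0.03 to 1.20).

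**Figure D2:**
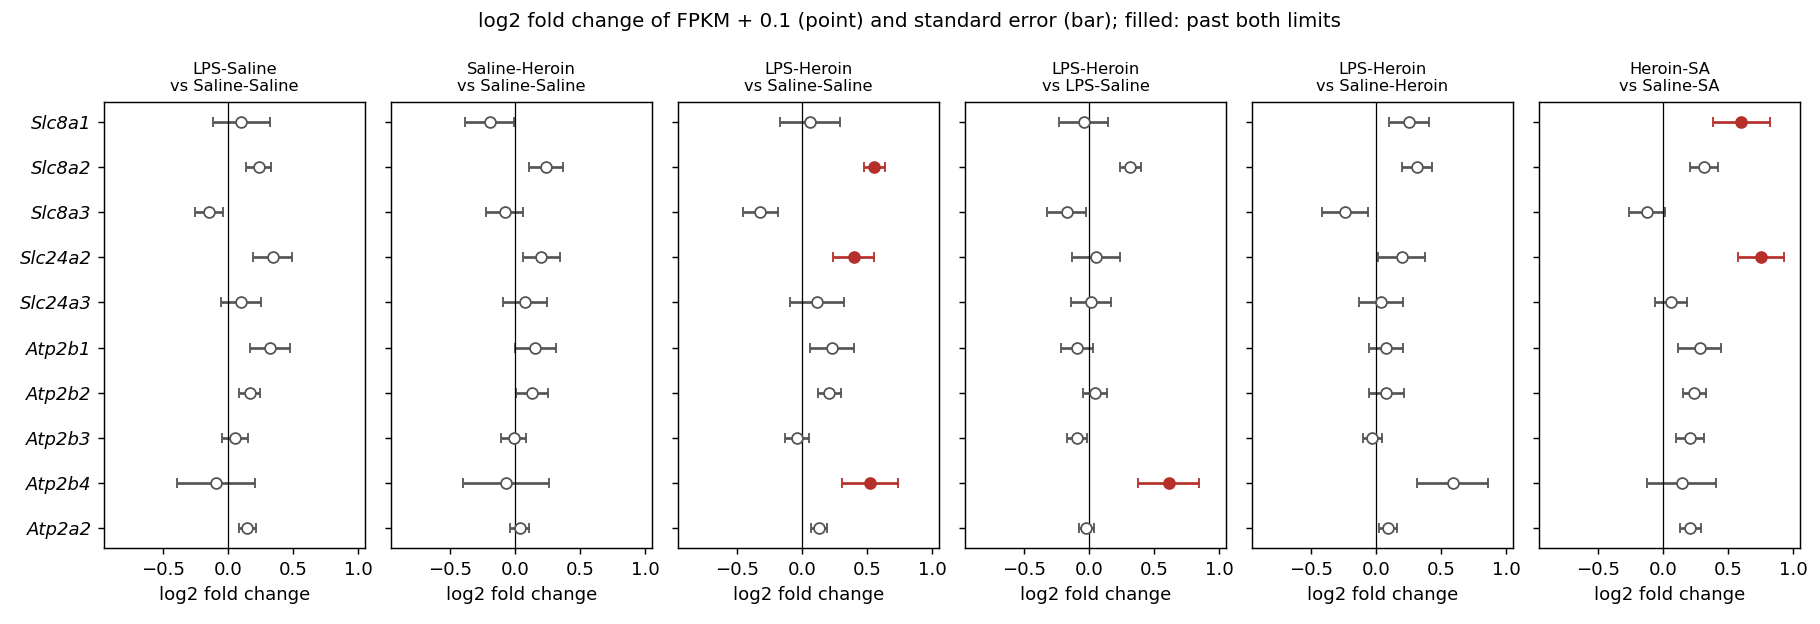
log2 fold change of FPKM + 0.1 (horizontal axis) of each member in 6 comparisons, with bars for the standard error and filled red points for values past both limits. Filled points stand at Slc8a2 (0.55), Slc24a2 (0.40) and Atp2b4 (0.52) for LPS-Heroin against Saline-Saline, at Atp2b4 (0.61) against LPS-Saline, and at Slc8a1 (0.60) and Slc24a2 (0.75) for Heroin-SA.

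Heroin self-administration was compared in 8 libraries that had no part in the rise through which Slc8a2 was chosen. The members were picked with earlier results of these data known, so these values are not free of that choice. Here 2 members were called, both exchangers and both higher in Heroin-SA, where 5.45% of the 15024 genes tested were called in either direction and 3.04% of those tested were called higher. The potassium-dependent exchanger Slc24a2 had 16.9, 17.6, 15.0 and 10.1 FPKM in Saline-SA and 25.0, 29.3, 22.6 and 22.4 FPKM in Heroin-SA. No Saline-SA library reached the lowest Heroin-SA library. The means were 14.9 ± 3.38 and 24.8 ± 3.23 FPKM (SD, n = 4), a log2 fold change of 0.75 ± 0.17 (SE; 95% interval 0.36 to 1.15, limma, adjusted p = 0.279). The two-sided exact permutation test gave p = 0.0286, the smallest that 4 against 4 libraries allow. Slc24a2 passed the limits with each library left out in turn (log2 fold change 0.58 to 0.84). Without Saline-SA replicates 3 and 4, the libraries with the most mitochondrial reads, it was 0.51 (limma, adjusted p = 0.623) and still past the limits.

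The cardiac and neuronal sodium/calcium exchanger Slc8a1 had 2.41, 2.14, 1.62 and 2.75 FPKM in Saline-SA, on 67 to 126 reads, and 3.05, 4.25, 2.56 and 3.88 FPKM in Heroin-SA, on 104 to 186 reads. Saline-SA replicate 4 lay above Heroin-SA replicate 3, so the ranges overlapped. The log2 fold change was 0.60 ± 0.22 (95% interval 0.11 to 1.09, limma, adjusted p = 0.371), and the two-sided exact permutation test gave p = 0.0571. The call was lost without Saline-SA replicate 3 (0.46), without Heroin-SA replicate 2 (0.49) or 4 (0.54), and without both Saline-SA libraries rich in mitochondrial reads (0.55).

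Slc8a2 was also higher in Heroin-SA, by less. Saline-SA libraries had 39.8, 46.1, 37.8 and 31.5 FPKM and Heroin-SA libraries had 47.4, 51.2, 46.2 and 46.7 FPKM. The ranges did not overlap, though Saline-SA replicate 2 (46.1 FPKM) came close to the lowest Heroin-SA value. The log2 fold change of 0.32 ± 0.11 was below the limit (95% interval 0.07 to 0.56, limma, adjusted p = 0.359; two-sided exact permutation test p = 0.0286). Groups that do not overlap, with the treated group higher, were seen for 3.55% of all genes and for 2 of the 10 members, Slc24a2 and Slc8a2. Without Saline-SA replicates 3 and 4 the log2 fold change of Slc8a2 was 0.16, and without Saline-SA replicate 2 it was 0.40 and past the limits.

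Of the other members in Heroin-SA, the endoplasmic reticulum pump Atp2a2 had a log2 fold change of 0.21 ± 0.08 and the pump Atp2b2 one of 0.24 ± 0.09, both under the limit and both with an exact permutation p of 0.0571. Atp2b1 stood at 0.28 ± 0.16, Atp2b3 at 0.21 ± 0.11, Atp2b4 at 0.14 ± 0.26, Slc24a3 at 0.06 ± 0.12 and Slc8a3 at -0.13 ± 0.14. The members' median was 0.22, against 0.01 over all genes. It was 0.15 over 6 pan-neuronal markers, 0.28 over 7 cortical markers and -0.02 over 10 medium spiny neuron markers. Without Saline-SA replicates 3 and 4, Atp2a2 stood at 0.10 and Atp2b2 at 0.18. Mitochondrial transcripts took 10.7% to 15.9% of the reads in Saline-SA and 10.0% to 11.8% in Heroin-SA, and its part in the values was not tested beyond leaving out these libraries. None of 7 cortical markers was called, and their sum ran from 58.2 to 255 FPKM in Saline-SA and from 53.9 to 393 FPKM in Heroin-SA. Of 7 septal and ventral markers 1, Lhx8, was called lower, and of 6 astrocyte markers 1, Slc1a2, was called higher. Of 3 measured red blood cell genes 0 were called. Their sum ran from 455 to 3560 FPKM in Saline-SA and from 502 to 2305 FPKM in Heroin-SA. It was highest in Saline-SA replicate 4, which had the lowest Slc24a2 and Slc8a2 of all 24 libraries. Log2 deviations from the group mean had r = -0.86 (Slc24a2) and -0.78 (Slc8a2) with this sum in SA libraries, and -0.24 and -0.40 in injection libraries. The part of these genes was not tested.

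The difference between Heroin-SA and Saline-SA was set against that between Saline-Heroin and Saline-Saline in a comparison added after the values had been seen. Of 15151 genes, 4.38% were called, and 2 members were, both with a more positive value after self-administration. Slc24a2 differed by 0.55 ± 0.24 on the log2 scale (limma, adjusted p = 0.751) and Slc8a1 by 0.79 ± 0.30 (limma, adjusted p = 0.718). Slc8a1 had 7.92, 8.22, 7.55 and 7.51 FPKM in Saline-Heroin, a narrow range within the 6.40 to 12.3 FPKM of Saline-Saline. Slc24a2 had 38.3, 31.7, 40.6 and 51.5 FPKM in Saline-Heroin. The call of Slc24a2 was lost in 9 of 16 fits that left out a library (Saline-Saline 1, 2 and 4, Saline-Heroin 1, 2 and 3, Saline-SA 4, Heroin-SA 1 and 2; 0.38 to 0.56), and its value fell to 0.31 without Saline-SA replicates 3 and 4. Experiment, route, surgery, housing, light cycle and time of death cannot be told apart here.

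Between the experiments the members stood lower in SA libraries. Slc8a1 ranged from 1.62 to 4.25 FPKM in the 8 SA libraries and from 6.40 to 12.3 FPKM in the 16 injection libraries, and the median of the first was 0.326 times that of the second. Slc24a2 ranged from 10.1 to 29.3 FPKM in SA libraries and from 30.0 to 57.9 FPKM in injection libraries. Slc24a3 (15.2 to 21.4 against 23.5 to 41.3 FPKM) and the plasma membrane pump Atp2b3 (12.5 to 18.8 against 19.4 to 26.0 FPKM) did not overlap either. Of the 10 members 4 were thus lower in every SA library, as were 4.07% of the 15118 genes with a mean of at least 0.5 FPKM. The other 6 overlapped, with SA medians between 0.619 times (Atp2b1) and 0.906 times (Atp2b2) the injection medians. Marker sums differed between the experiments too. Group medians of the medium spiny neuron sum were 2377 and 2510 FPKM in SA and 1574 to 1766 FPKM in injection groups. Those of the astrocyte sum were 423 and 457 FPKM in SA and 574 to 636 FPKM in injection groups. The part of these markers in the members' values was not tested. Mitochondrial share, surgery, housing, light cycle and time of death differ with the experiment and cannot be told apart from it.

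Within groups, members moved together to different degrees. Deviations from the group mean of log2 FPKM were most alike for Slc8a1 and Atp2b3 (Pearson r = 0.74 and Spearman rho = 0.72 over 24 libraries), with r = 0.76 in the 16 injection libraries, 0.72 in the 8 SA libraries and 0.70 without the 2 libraries farthest from the median of Slc8a1. Slc24a2 and Atp2b2 had r = 0.63, with 0.77 in injection and 0.29 in SA libraries. The least alike were Atp2b2 and Slc24a3 (r = -0.49) and Slc8a2 and Slc8a3 (r = -0.47). Deviations also followed marker lists. Atp2b1 had r = 0.79 with the summed level of 10 medium spiny neuron markers (Spearman rho = 0.77, 0.80 in injection and in SA libraries), Atp2a2 had r = 0.74 with 6 pan-neuronal markers, and Atp2b4 had r = 0.61 with the 7 cortical markers. With the medium spiny neuron markers Atp2b4 had r = -0.59 and Slc24a3 -0.61. Slc24a3 had r = 0.67 with the choroid plexus markers, and Slc24a2 had 0.46 with the oligodendrocyte markers (0.66 in injection and -0.40 in SA libraries). For Slc8a2 the values were 0.36 with the cortical markers (0.58 in injection and 0.15 in SA libraries) and -0.61 with the septal and ventral markers, and Slc24a2 had -0.62 with the latter. These are descriptions: the points share libraries, dissection and depth, and no test was made.

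**Figure D3:**
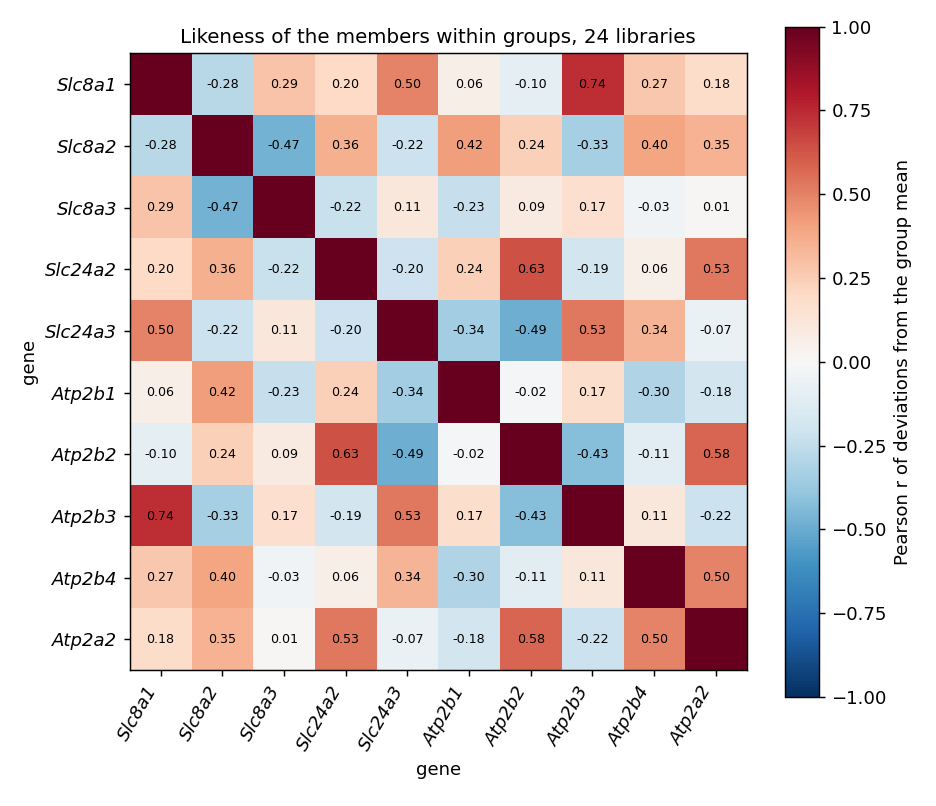
Pearson r of the deviations from the group mean between each pair of members over 24 libraries (both axes list the genes; red positive, blue negative). The pair Slc8a1 and Atp2b3 is the reddest at 0.74 and the pair Atp2b2 and Slc24a3 the bluest at -0.49.

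**Figure D4:**
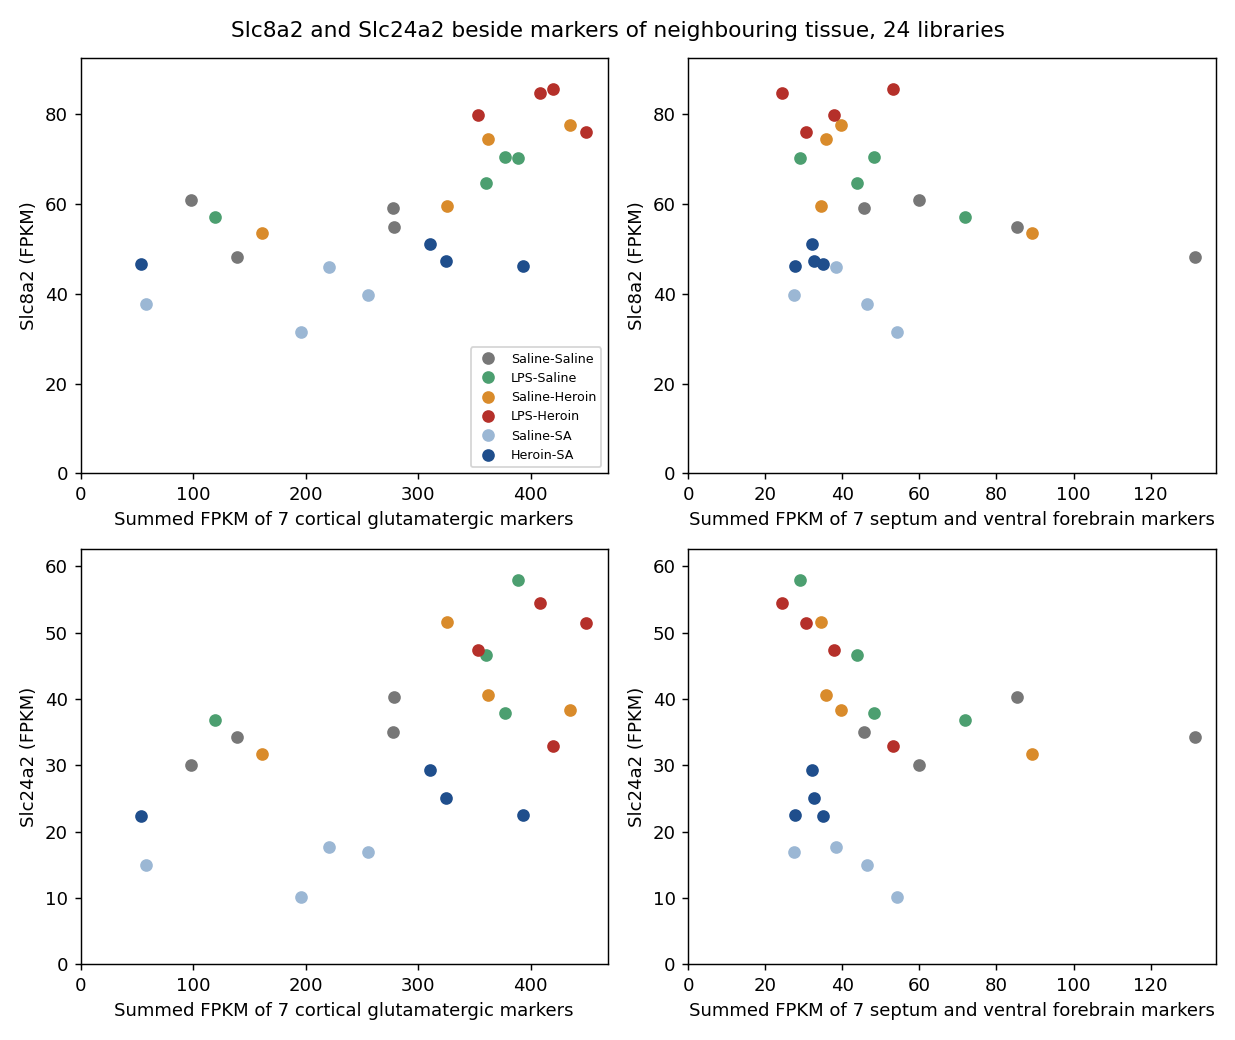
FPKM of Slc8a2 (top) and Slc24a2 (bottom) against the summed FPKM of 7 cortical markers (left) and 7 septal and ventral forebrain markers (right), a point for each of 24 libraries colored by group. The 4 LPS-Heroin libraries (red) sit at 353 to 449 FPKM of cortical markers, to the right of the Saline-Saline libraries (grey, 97.99 to 279 FPKM).

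Over all 24 libraries and 13862 other genes with a mean of at least 1 FPKM, the 5 genes most like Slc8a2 in log2 level were Wdr7 (Pearson r = 0.94), the sodium bicarbonate transporter Slc4a10 (0.94), the voltage-gated sodium channel Scn2a (0.93), the cyclic nucleotide phosphodiesterase Pde1a (0.93) and the septin Sept11 (0.93). Spearman rho for these was 0.92, 0.93, 0.93, 0.90 and 0.92. Since the experiments differ in level, r was also taken within the 16 injection libraries (0.80 to 0.85) and within the 8 SA libraries (0.82 to 0.93). With the group means removed it was 0.57 for Scn2a to 0.79 for Pde1a, and 24 other genes then had a higher r than Pde1a.

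Other genes of calcium handling were followed in 6 lists of 49 genes, 47 of them with values. In LPS-Heroin against Saline-Saline 1 of 45 tested was called higher and 1 lower, where 5.43% of all genes tested were called. In Heroin-SA against Saline-SA 1 of 46 was called higher and 2 lower, where 5.45% of all genes were called. In LPS-Heroin against Saline-Heroin 1 of 46 was called higher and 1 lower, where 2.2% of all genes were called. In the remaining 3 comparisons of groups none of 44 to 46 was called, where 2.29% to 3.07% of all genes were. Nothing is read from these counts. The median log2 fold change of the 45 to 46 genes was 0.05 in LPS-Heroin and 0.06 in Heroin-SA. These lists were written with earlier results of these data known.

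Itpr1, the main neuronal inositol trisphosphate receptor, which releases calcium from the endoplasmic reticulum, was called higher in both. It had 27.8 ± 5.99 FPKM in Saline-SA and 42.2 ± 7.95 FPKM in Heroin-SA (SD, n = 4), which did not overlap, with a difference of 0.61 ± 0.19 on the log2 scale (limma, adjusted p = 0.344). In Saline-Saline and LPS-Heroin it had 41.9 ± 10.8 and 56.4 ± 11.9 FPKM, for 0.44 ± 0.19 (limma, adjusted p = 0.436). It was also the highest gene of the list of intracellular release and store entry. In the same list Orai2, a store-operated channel subunit, was called higher (20.02 ± 4.60 against 13.98 ± 3.33 FPKM) and the ryanodine receptor Ryr1 lower (1.38 ± 0.09 against 2.06 ± 0.51 FPKM) in LPS-Heroin than in Saline-Heroin (limma, adjusted p = 1.000 for both). The ryanodine receptor Ryr2 had an LPS by heroin interaction of -0.45 ± 0.19 (limma, adjusted p = 0.992).

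Of the sodium-potassium ATPase, whose gradient drives the exchangers, the subunit Atp1b2 was called lower in LPS-Heroin (87.2 ± 10.1 FPKM) than in Saline-Saline (126 ± 8.29 FPKM, SD, n = 4), without overlap and with a log2 fold change of -0.54 ± 0.09 (limma, adjusted p = 0.144). Its subunit with the highest level, Atp1b1, had 646 ± 53.8 and 655 ± 61.1 FPKM in these groups. The cytosolic buffer Calb2 was called lower in Heroin-SA (14.9 ± 0.84 FPKM) than in Saline-SA (36.5 ± 29.2 FPKM), where the Saline-SA libraries spread widely, and Hpca, the highest gene of the buffer list, had 612 ± 49.8 and 598 ± 117 FPKM there. Slc24a5, an exchanger of the same family as Slc24a2, was called lower in Heroin-SA on 8 to 16 reads a library against 22 to 57 reads in Saline-SA (log2 fold change -1.51 ± 0.40, limma, adjusted p = 0.331), and its change also differed from that of injected heroin by -1.82 ± 0.56. The luminal buffer Calr stood 0.44 ± 0.11 higher in that same comparison of heroin effects (limma, adjusted p = 0.563), with 294 ± 24.6 FPKM in Heroin-SA and 227 ± 13.8 FPKM in Saline-SA. Atp2c1, the Golgi pump and highest of the other pumps and exchangers, and Smdt1, the highest gene of mitochondrial calcium uptake, were called in no comparison. Smdt1 averaged 293 FPKM and Atp2c1 40.7 FPKM over the 24 libraries.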

How the data were processed

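Directional libraries were prepared from 300 ng of total RNA per rat NAc by poly-T selection. Per the labels, reads were processed with fastp, HISAT2 and featureCounts on the rn6 build; versions are not given in the sources used here, nor whether counting used strand. The authors tested their counts with DESeq2 and deposited FPKM, in which the length of the gene model and the size of the library are divided out. Values times gene length were whole multiples of a step in 100% of cases (tolerance 0.01), so that reads could be recovered for depth, and counting precision follows them. FPKM is not a count, so each comparison of 8 libraries was fitted with limma-trend (limma 3.58.1, R 4.3.3) on log2(FPKM + 0.1) over genes with a mean of at least 0.5 FPKM, a scale that understates changes of low genes. Adjusted p-values are Benjamini-Hochberg over all genes tested. The fold change limit of 0.378 is the log2 of 1.3, cut to 3 decimals. The interaction used 16 libraries. Two-sided exact permutation tests cover single members. The methods state more sequenced samples per group than the 4 held here, and labels and methods differ on the gap between LPS and heroin.

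Members and lists were chosen with earlier results of these data known. Genes named were the 10 members, list genes called in any comparison or highest in their list, and the 5 genes most like Slc8a2. A list gene that this rule names is not reported here. Same-numbered libraries did not deviate together (lowest correlation of a pair -0.19), so numbers were not taken as pairs. Alternatives were pseudocounts of 1 and 0.01, other filters, quantile normalization, equal medians, a fit of all 24 libraries, robust moderation, a replicate block, limma-voom on recovered reads and leaving out libraries. The fits were tested on simulated data.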

Additional observations from a re-analysis of the deposited data

Results flagged for a closer look

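In a group of 4, a library was marked where its gap to the nearest other library, as a share of the group's range, passed Dixon's 95% critical value. Chance marks about 1 in 20 groups, and 3 of 60 were marked. Slc8a3 stood at 9.04 FPKM in LPS-Saline replicate 3, against 7.02 FPKM in the next library, and at 8.46 FPKM in Saline-SA replicate 4, against 6.71 FPKM in the next. Atp2b1 stood at 147 FPKM in LPS-Heroin replicate 2, against 110 FPKM in the next. The difference of the heroin from the saline group was more positive in self-administration than in injection for Slc24a2 (by 0.55 on the log2 scale, limma, adjusted p = 0.751). The same held for Slc8a1 (by 0.79, limma, adjusted p = 0.718). For Slc8a1 the injected groups stood the other way, with means of 7.80 FPKM in Saline-Heroin and 9.24 FPKM in Saline-Saline. Heroin-SA values were higher in 4 of 4 libraries for Slc24a2 than any Saline-SA library, and in 3 of 4 for Slc8a1. Neither passed the adjustment over all genes.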

How the results depend on the processing

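Of 187 values of named members under another setting, 178 kept their direction and their side of the limits and 9 dropped below the limits. With 1 library left out, 135 of 168 stayed, 27 dropped below, 5 moved past and 1 changed sign: the interaction of Slc8a2 ran from -0.018 (without Saline-Heroin replicate 2) to 0.16. Slc24a2 in Heroin-SA stayed past the limits in all of these fits. Only values past the limits in the main fit could drop below them, so 187 and 168 also count values that could not. Calling at an adjusted p under 0.05 left 0 genes and 0 members in all 8 comparisons, while a fit of all 24 libraries gave 78 such genes in Heroin-SA, a pseudocount of 1 gave 1 there, and no filter gave 7 in LPS-Saline, 5 in Saline-Heroin, 1 in LPS-Heroin against Saline-Heroin and 2 for the interaction.

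With no filter, which tests more genes of low level, 582 genes were called in LPS-Saline, 548 in LPS-Heroin against LPS-Saline, 524 against Saline-Heroin and 565 for the interaction. Without Saline-SA replicates 3 and 4, an alternative chosen after seeing the data, 544 genes and 1 member were called in Heroin-SA and 1 member in the comparison of heroin effects. Quantile normalization left 1 member in LPS-Heroin against Saline-Saline, and the fit of all libraries left 0 against LPS-Saline; the cause was not tested. Of the genes called in LPS-Heroin against Saline-Saline, 55.0% were higher rather than lower, and with limma-voom 44.4% were. A replicate block, added although the numbers share only a name, left 1 member in the comparison of heroin effects and took Slc24a2 below the limits in LPS-Heroin (limma, adjusted p = 0.467).

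With each library left out in turn, genes called ran from 310 to 625 in LPS-Saline (highest without LPS-Saline replicate 3), 366 to 727 in Saline-Heroin (highest without Saline-Heroin replicate 2), 664 to 988 in LPS-Heroin, 295 to 428 for LPS-Heroin against LPS-Saline, 301 to 446 against Saline-Heroin, 645 to 1211 in Heroin-SA, 290 to 446 for the interaction and 542 to 1001 for the heroin effects (highest without Heroin-SA replicate 3). Members called ran from 0 to 1 in LPS-Saline, 1 to 3 in LPS-Heroin, 0 to 1 against LPS-Saline, 0 to 2 against Saline-Heroin, 1 to 3 in Heroin-SA, 0 to 2 for the interaction and 1 to 2 for the heroin effects. The likeness of Slc8a2 to its 5 nearest genes fell to 0.76 (Wdr7), 0.64 (Slc4a10), 0.57 (Scn2a), 0.79 (Pde1a) and 0.72 (Sept11) within groups. Depth limits Slc8a1 and Slc24a5 most, and 4 libraries a group limit every test.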
